A study of Mus musculus with 45 samples.

Results

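Rnf187 and the Hist3 histone genes lie next to each other on mouse chromosome 11, and their RNA was measured in mouse embryonic stem cells (ESCs) with deletions of the long non-coding RNA gene 5430416N02Rik on chromosome 5. The gene cluster held 9 of the 33924 genes listed, namely Rnf187, Hist3h2ba, Hist3h2a, Hist3h2bb-ps, Gm12260, Trim11, Guk1, Zfp39 and 2810021J22Rik. The members were chosen on measured values, because Rnf187, Hist3h2ba and Gm12260 had been seen to be much higher in homozygous than in heterozygous ΔG cells. Their values in that contrast are therefore given as a description, with no test.

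The study asked what the loss of 5430416N02Rik RNA, with or without the loss of its promoter, does to gene expression in ESCs and in cells leaving the stem cell state. D3 ESCs, a mouse line grown with the cytokine LIF and labelled as strain 129, were edited with Cas9, a pair of guide RNAs and a donor. In ΔG cells a GFP-IRES-Puro cassette took the place of the gene body, and in ΔPG cells a PGK-puro cassette took the place of the promoter and the gene body. Total RNA depleted of ribosomal RNA was sequenced from heterozygous and homozygous cells of both lines, either in the ES state (DMSO for 48 h) or after retinoic acid (RA, 2 µM for 48 h). These 8 groups of 3 biological replicates made up 24 of the 45 samples of the series. All 8 groups carried at least 1 targeted allele and a drug resistance cassette, heterozygous cells were the controls, and no untargeted cells were among them. The clone behind each RNA-seq sample was not given, so clone and genotype cannot be told apart.

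The deposited values are regularized log (rlog) values, which are normalised read counts on the log2 scale, in 1 table for the 12 ΔG samples and another for the 12 ΔPG samples. The rlog transformation pulls the samples of a gene with few reads towards each other, so differences of such genes are understated. Read counts were not used here, so the depth of each sample is unknown. All 9 members varied in both tables, in which 22048 (ΔG) and 21979 (ΔPG) genes varied. A mean rlog value of at least 3 was reached by 7 members in the ΔG table (not by Hist3h2bb-ps and Hist3h2a) and by 8 in the ΔPG table (not by Hist3h2a). In bulk samples, fewer cells of a type and less RNA per cell cannot be told apart.

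Histones H2A and H2B pair with each other in the nucleosome, and most of their genes stand in large clusters from which RNA is made mainly during DNA replication. The Hist3 genes named here are H2A and H2B genes apart from those clusters. Their neighbour Rnf187 encodes a RING-type ubiquitin ligase known as a coactivator of the transcription factor AP-1, the dimer of Jun and Fos family proteins.

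The targeted gene itself served as a check of the genotype labels. 5430416N02Rik read 5.58, 5.54 and 5.50 in heterozygous and 2.63, 2.77 and 2.85 in homozygous ΔG ES samples, and its means in ΔG RA samples were 5.58 ± 0.06 (SD, n = 3) and 2.83 ± 0.23. In ΔPG cells it read 4.60 ± 0.02 in heterozygous and 2.30 ± 0.14 in homozygous ES samples, and 4.16 ± 0.33 and 2.35 ± 0.28 in RA samples. Heterozygous and homozygous samples did not overlap in any line or state, with the homozygous ones lower, as the labels require. The difference was −2.79 in ΔG ES, −2.75 in ΔG RA and −1.81 in ΔPG RA samples (adjusted p = 0.00103 for the last), and in ΔPG ES samples the gene was 4.92-fold lower (adjusted p = 5.95e-06).

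The cells were also checked against marker genes of their state. All 9 stem cell markers that could be measured, of 10 in the list, were lower after RA in both genotypes of both lines, with their mean at 10.3 in heterozygous and homozygous ΔG ES samples and at 6.79 and 6.75 after RA. In ΔPG cells the mean went from 10.2 to 6.83 in heterozygous and from 10.1 to 6.81 in homozygous samples, and Dppa5a was the most abundant marker in every group. Of 10 retinoic acid responsive genes, 9 were higher after RA in each of the 4 comparisons, with Cyp26a1 the most abundant, and Cdx1 was lower. These counts took a log2 difference over 0.5 in either direction at an adjusted p under 0.1. With RA, 29.5% and 29.2% of all genes passed it in heterozygous and homozygous ΔG cells, and 31.6% and 27.8% in ΔPG cells.

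On the NCBIM37 build the core of the cluster spans less than 30 kb of chromosome 11. Rnf187 (ENSMUSG00000020496.8) lies on the minus strand at 58745790 to 58752418, and the H2B gene Hist3h2ba (ENSMUSG00000056895.2) starts 9.99 kb further on, on the plus strand at 58762413 to 58763032. The pseudogene Hist3h2bb-ps (ENSMUSG00000080712.3, minus strand, 58767550 to 58768014) ends 173 bases before the H2A gene Hist3h2a (ENSMUSG00000078851.3, plus strand, 58768187 to 58770176). Gm12260, annotated as a pseudogene on this build (ENSMUSG00000080152.4, plus strand, 58775314 to 58775724), lies inside Trim17, which is not a member, with no shared exonic base. The other members lie outside this core, with Zfp39 and 2810021J22Rik 28.1 kb and 49.0 kb from Rnf187 on the side of lower coordinates and Trim11 and Guk1 39.2 kb and 245 kb away on the other side.

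Some members share sequence, which makes their values uncertain. Hist3h2ba and Hist3h2bb-ps have 359 bases in common at 97.2% identity, or 77.2% of the exonic bases of Hist3h2bb-ps. In Hist3h2ba 65.5% of the exonic bases lie in a copy that extends beyond the pseudogene. Hist3h2a shares 708 of its 1990 exonic bases with exons of Trim17 on the same strand. Zfp39 and 2810021J22Rik had copies over 3.44% and 3.33% of their exonic bases, and the other members had none of at least 100 bases and 95% identity.

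In ΔG cells, Rnf187, the 3 Hist3 genes and Gm12260 were high in homozygous and low in heterozygous samples. Rnf187 read 4.63, 4.72 and 5.06 in heterozygous and 8.14, 8.13 and 8.23 in homozygous ES samples. After RA it read 5.20, 5.08 and 5.15 in heterozygous and 8.61, 8.57 and 8.75 in homozygous samples. The genotypes were far apart in both states, with no overlap and with means of 4.80 ± 0.23 against 8.17 ± 0.06 (SD, n = 3) in ES and 5.14 ± 0.06 against 8.64 ± 0.09 in RA samples. This is a difference of 3.36 in ES and 3.50 in RA samples, or 10.3-fold and 11.3-fold.

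Hist3h2ba, which encodes an H2B protein, read 2.81, 3.24 and 3.18 in heterozygous and 6.18, 6.38 and 6.51 in homozygous ΔG ES samples. After RA it read 2.79, 2.91 and 3.44 in heterozygous samples, about the level of the ES state, and 7.93, 7.74 and 7.85 in homozygous samples, above it. The genotypes did not overlap and the difference was 3.28 in ES and 4.79 in RA samples. Gm12260 read 2.62, 2.72 and 2.76 in heterozygous and 5.46, 5.29 and 5.36 in homozygous ES samples, and 2.55, 2.55 and 3.10 against 5.10, 4.25 and 5.35 after RA. Here too the genotypes stayed apart, by 2.67 in ES and 2.17 in RA samples, although the homozygous RA samples were spread out, with replicate 2 lowest at 4.25.

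The weaker Hist3 genes showed the same order at low values. The H2B pseudogene Hist3h2bb-ps had means of 2.20 in heterozygous and 3.12 in homozygous ES samples and of 2.17 and 4.03 in RA samples, a difference of 0.92 and 1.86. Hist3h2a, the H2A gene, had means of 1.41 and 2.00 in ES and of 1.40 and 2.35 in RA samples, a difference of 0.59 and 0.96. The genotypes of both genes did not overlap in either state.

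The 4 members outside the core differed less between the ΔG genotypes. Guk1, a guanylate kinase that phosphorylates GMP, was higher by 0.26 in ES and 0.20 in RA homozygous samples without overlap. The differences were 0.12 and 0.18 for Trim11, a TRIM family ubiquitin ligase, 0.14 and 0.12 for the zinc finger gene Zfp39, and −0.03 and 0.18 for 2810021J22Rik, and their genotypes overlapped. In each state 5 of 9 members passed a difference of 0.5, with a median of 0.59 in ES and 0.96 in RA samples. Over all genes the median difference was −0.01 and 0.00, and 0.984% (ES) and 2.14% (RA) of genes were called, meaning that the log2 difference was over 0.5 in either direction at an adjusted p under 0.1. Nothing is read from the members' count, since the members were picked on this contrast.

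**Figure D1:**
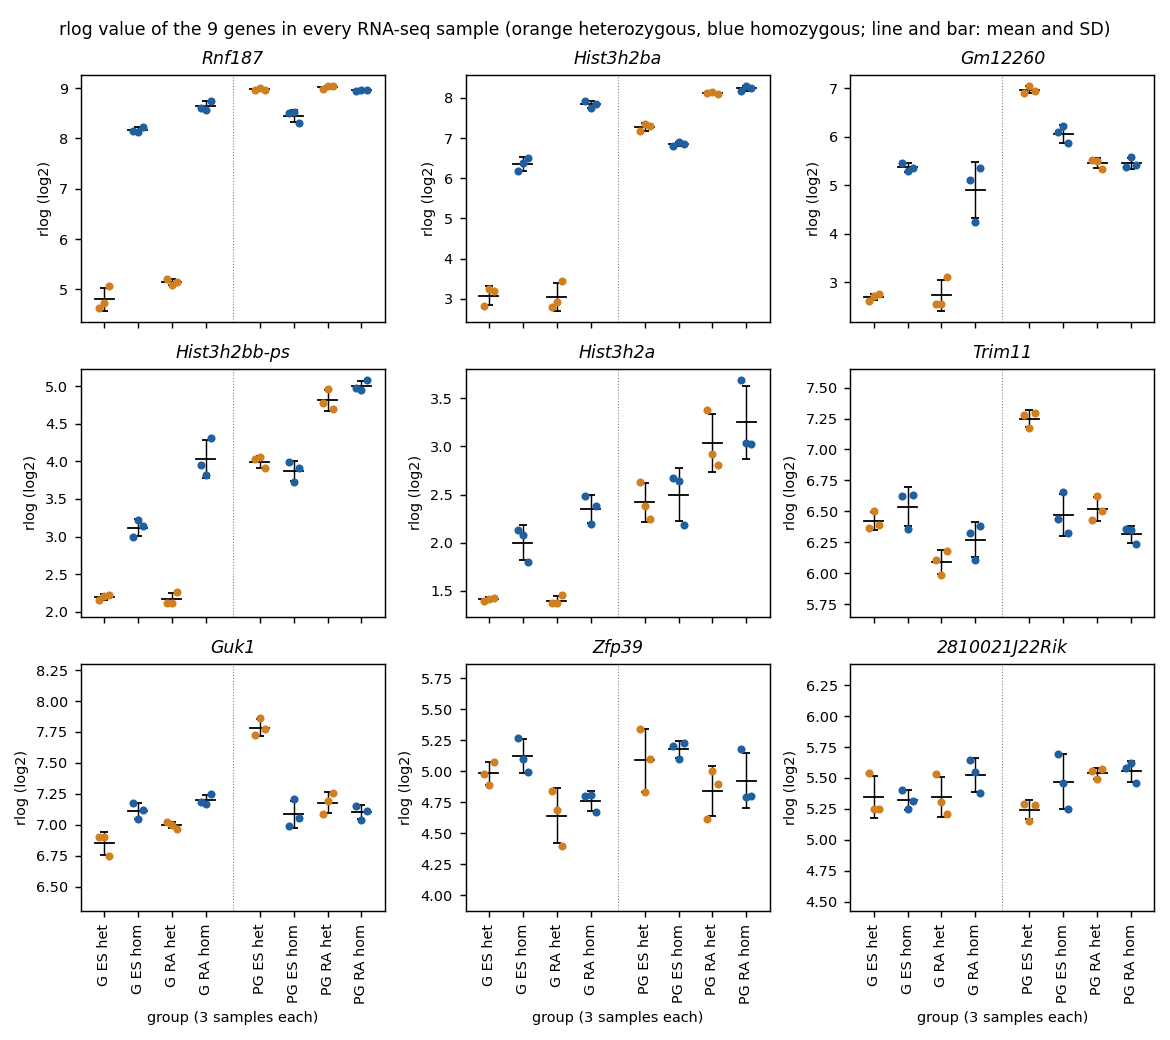
The rlog value (log2 scale) of each of the 9 members in the 8 groups, with points for samples, the line for the mean and the bar for the SD (n = 3), and ΔG and ΔPG values taken from tables normalised separately. Rnf187 lies at 4.63 to 5.20 in heterozygous ΔG samples and at 8.13 to 9.04 in the homozygous ΔG samples and all ΔPG samples.

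Levels in the heterozygous ΔG samples were set beside those of the ΔPG table. The tables were normalised separately, so levels in them are compared only roughly. Rnf187 was at 8.98 and 9.02 in heterozygous ΔPG ES and RA samples, and the heterozygous ΔG means were lower by 4.18 and 3.87. Hist3h2ba was lower by 4.20 in ES and 5.07 in RA samples, and Gm12260 was lower by 4.27 and 2.72. Hist3h2bb-ps was lower by 1.80 and 2.64 and Hist3h2a by 1.00 and 1.64. Outside the core, Guk1 was lower by 0.94 and 0.18, Trim11 by 0.83 and 0.43 and Zfp39 by 0.11 and 0.20. 2810021J22Rik was higher by 0.11 in ES and lower by 0.19 in RA samples. The heterozygous ΔPG ES samples used here stood apart by GC content, as described below. Over the 20645 genes that varied in both tables the median was −0.00 in ES and 0.03 in RA samples, and nothing is read from the size of the members' values, since the members were picked on heterozygous ΔG values. In homozygous samples the same subtraction gave −0.28 for Rnf187, −0.49 for Hist3h2ba and −0.69 for Gm12260 in the ES state, and −0.31, −0.39 and −0.56 after RA. It gave −0.76 and −0.98 for Hist3h2bb-ps and −0.50 and −0.90 for Hist3h2a in ES and RA samples, so part of their gap was present in homozygous samples too. The difference between the tables was not tested, and neither was its cause.

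The low values in heterozygous ΔG samples came close to the floor of the table for some members. In the 6 heterozygous ΔG samples, Gm12260, Hist3h2bb-ps and Hist3h2a ranked exactly as the lowest value of each sample did, as 7.01% of all genes did. Rank correlation with that lowest value was 0.886 for Hist3h2ba and −0.2 for Rnf187 over the 6 samples, as a description. In the 6 homozygous ΔG samples 0 members ranked in this way, against 8.43% of all genes, and 5430416N02Rik did.

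Levels of different genes were compared per kb of exon. In heterozygous ΔG ES samples Guk1 stood first at 5.96 (log2 level per kb) and Trim11 second at 4.58, with Rnf187 at 3.84 and Hist3h2ba at 3.77, and the members at the floor of these samples were not compared. In homozygous ΔG ES samples Rnf187 led at 7.20, before Hist3h2ba at 7.04, Gm12260 at 6.65 and Guk1 at 6.22. In ΔPG RA homozygous samples Hist3h2ba led at 8.92, before Rnf187 at 7.99, Gm12260 at 6.74 and Guk1 at 6.21. Hist3h2a was the least abundant member in both homozygous groups.

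**Figure D2:**
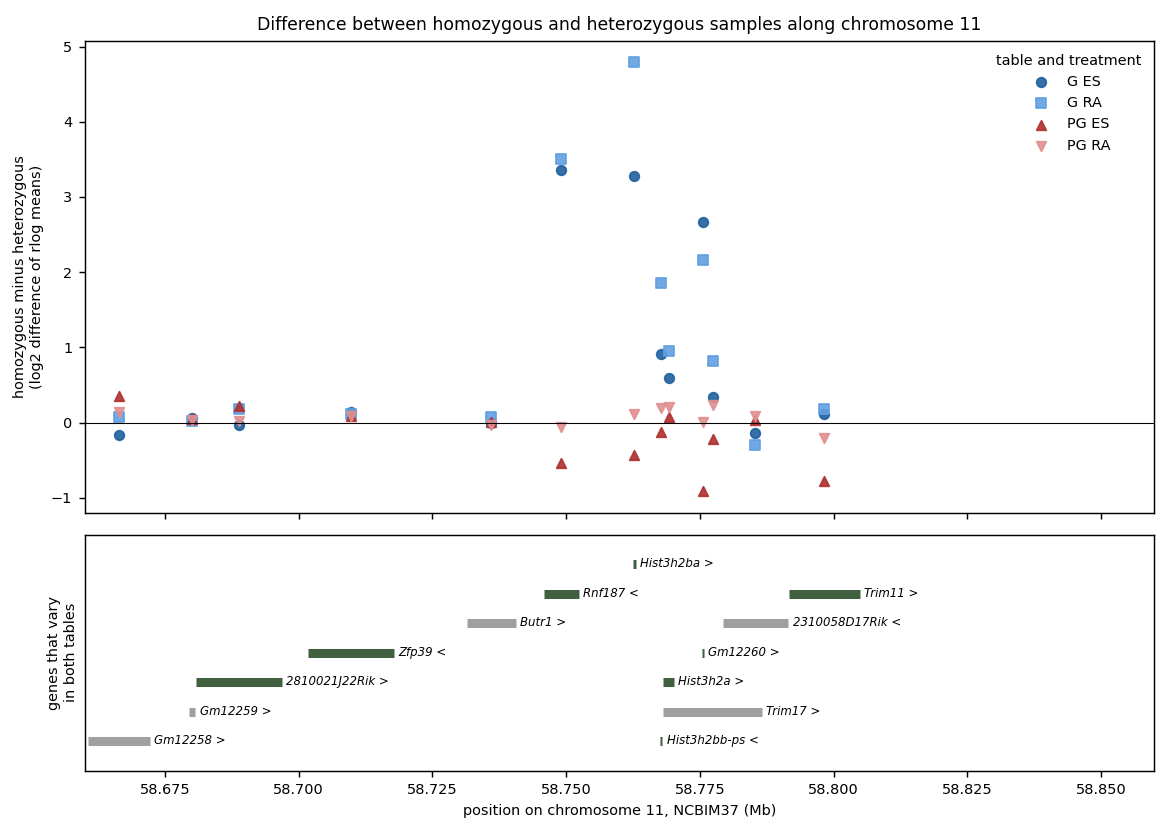
The log2 difference between homozygous and heterozygous samples of the genes along chromosome 11 (position in Mb, NCBIM37) in ES and RA samples of both lines, for genes that varied in both tables. In ΔG cells the members from Rnf187 to Gm12260 stand out, with Rnf187 at 3.36 and 3.50. Trim17, which lies among them and is not a member, is at 0.34 and 0.82, and Trim11 lies at 0.12 and 0.18.

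In ΔPG cells the heterozygous ES samples stood apart from the other samples of their table in a way tied to base composition. Over 11904 genes, the deviation of a gene from its mean was correlated with the GC content of its exons at a Spearman rho of 0.397 to 0.405 in the 3 heterozygous ES samples, against −0.28 to −0.33 in the 3 homozygous ES samples and −0.123 to −0.0594 in the RA samples. Their highest value, that of mt-Rnr2, was 17.7, against at least 18.7 in the other ΔPG samples. The difference between ΔPG ES genotypes was correlated with GC content at rho = −0.735 across genes, which are not independent replicates. Several members are rich in GC, with 65.5% in Gm12260, 61.1% in Rnf187, 57.3% in Hist3h2ba, 56.6% in Trim11 and 55.5% in Guk1, against a median of 50% over these genes. The ΔPG differences of the members are therefore given also after the trend with GC content was removed from every sample, which was possible for 8 members (not for Hist3h2a).

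In ΔPG ES cells Rnf187, Gm12260, Trim11 and Guk1 were lower in homozygous samples, and none of these calls was kept once the GC trend was removed. Rnf187 read 8.96, 9.01 and 8.97 in heterozygous and 8.51, 8.53 and 8.30 in homozygous samples. Gm12260 read 6.91, 7.05 and 6.95 in heterozygous and 6.09, 6.23 and 5.87 in homozygous samples. The genotypes did not overlap for either gene, and both stayed far above their level in heterozygous ΔG samples. The difference of Rnf187 was −0.53 (adjusted p = 0.000314), and −0.46 without homozygous ES replicate 3, which is under the limit. After removal of the GC trend it was −0.03 (adjusted p = 0.683). Gm12260 differed by −0.91 (adjusted p = 0.000209), or by −0.28 with the GC trend removed (adjusted p = 0.0126).

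Trim11 read 7.28, 7.17 and 7.30 in heterozygous and 6.44, 6.66 and 6.32 in homozygous ΔPG ES samples, a difference of −0.78 (adjusted p = 0.000316). Guk1 read 7.72, 7.86 and 7.77 against 6.99, 7.21 and 7.05, a difference of −0.70 (adjusted p = 0.000129). The genotypes did not overlap for either gene. After removal of the GC trend the differences were −0.42 (adjusted p = 9.41e-05) for Trim11 and −0.39 (adjusted p = 1.35e-05) for Guk1, under the limit of 0.5. Hist3h2ba read 7.16, 7.36 and 7.31 in heterozygous and 6.80, 6.90 and 6.85 in homozygous samples, and its difference of −0.43 (adjusted p = 0.00131) was also under the limit. Hist3h2bb-ps, Hist3h2a, Zfp39 and 2810021J22Rik had overlapping genotypes and differences from −0.12 to 0.23.

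Thus 4 of 9 members were called in ΔPG ES cells, all lower, beside 13.2% of all genes. With the GC trend removed, 0 of 8 were called by limma beside 7.42% of all genes, and 3 (Gm12260, Trim11 and Guk1) had an unadjusted p under 0.05. The median difference of the members was −0.43 before and −0.11 after this removal, against 0.00 and −0.02 over all genes.

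After RA, 0 of 9 members were called between ΔPG genotypes by limma, beside 0.846% of all genes, and 2 (Hist3h2ba and Trim11) had an unadjusted p under 0.05. The count with the GC trend removed was 0 of 8 beside 1.59% of all genes, again with 2 under an unadjusted p of 0.05. Rnf187 read 8.98, 9.04 and 9.03 in heterozygous and 8.94, 8.97 and 8.96 in homozygous samples, a difference of −0.06 (adjusted p = 0.469). Its groups did not overlap but lay within 0.1 of each other. Hist3h2ba differed by 0.11 (adjusted p = 0.309), Gm12260 by 0.00 (adjusted p = 0.992) and Trim11 by −0.21 (adjusted p = 0.246). These differences were −0.07, 0.12, −0.02 and −0.20 with the GC trend removed.

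An interaction term, fitted to all 12 ΔPG samples, tested whether the genotype difference changed between ES and RA cells. It was called for 4 of 9 members, all with a negative difference in ES cells and one nearer to 0 in RA cells, beside 13.9% of all genes. The interaction was 0.54 for Hist3h2ba (adjusted p = 0.000151), 0.91 for Gm12260 (adjusted p = 0.000202), 0.57 for Trim11 (adjusted p = 0.00242) and 0.63 for Guk1 (adjusted p = 0.000185). For Rnf187 it was 0.47 (adjusted p = 0.000194), under the limit, but 0.50 and 0.51 and past it without homozygous ES replicate 1 or 2. For Trim11 it was 0.4962 and no longer past the limit without homozygous ES replicate 3. Once the GC trend was removed, 0 of 8 members were called by limma beside 9.38% of all genes, and Guk1 had an unadjusted p under 0.05. The values were then 0.17 for Hist3h2ba, 0.27 for Gm12260, 0.22 for Trim11, 0.31 for Guk1 and −0.04 for Rnf187. In ΔG cells, as a description, the genotype difference of Hist3h2ba was larger in RA than in ES cells by 1.52, with its heterozygous samples near the floor.

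Retinoic acid raised the H2B genes of the cluster in homozygous cells of both lines and in heterozygous ΔPG cells. Comparisons of RA with ES cells share their samples with the genotype comparisons, so their values are given side by side and not as separate evidence. In homozygous ΔG cells Hist3h2ba went from a mean of 6.35 ± 0.17 to 7.84 ± 0.09 (SD, n = 3), and in heterozygous ΔG cells it was at 3.08 ± 0.23 and 3.05 ± 0.35. In ΔPG cells it went from 7.28 ± 0.10 to 8.12 ± 0.03 in heterozygous and from 6.85 ± 0.05 to 8.23 ± 0.07 in homozygous cells. Every RA sample lay above every ES sample in these 3 comparisons, and the heterozygous ΔG groups overlapped.

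The rise of Hist3h2ba was 1.49 in homozygous ΔG (adjusted p = 2.49e-10), 0.84 in heterozygous ΔPG (adjusted p = 7.94e-06) and 1.39 in homozygous ΔPG cells (adjusted p = 7.66e-09). It was 1.31, 1.08 and 1.25 with the GC trend removed. In heterozygous ΔG cells the difference was −0.03 (adjusted p = 0.892). Hist3h2ba lay near the floor of the table in those samples and Hist3h2bb-ps followed it, so a response to RA there could not be judged. Hist3h2bb-ps, which shares sequence with it, rose by 0.91 (adjusted p = 5.57e-05), 0.81 (adjusted p = 0.0004) and 1.13 (adjusted p = 2.31e-05) in the same 3 comparisons. Its ΔPG differences were 1.04 and 1.01 with the GC trend removed, and under quantile normalization it was 0.47 and not called in heterozygous ΔPG cells.

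Hist3h2a read 2.63, 2.38 and 2.24 in heterozygous ΔPG ES samples and 3.37, 2.92 and 2.80 after RA, with no overlap. It rose by 0.62 in heterozygous (adjusted p = 0.0278) and by 0.75 in homozygous ΔPG cells (adjusted p = 0.0153). Without heterozygous RA replicate 1 the first of these was 0.45 and no longer called, and under quantile normalization they were 0.29 and 0.38 and neither was called. In ΔG cells its difference was −0.02 in heterozygous and 0.35 in homozygous cells, which did not pass.

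Rnf187 itself changed little with RA. In homozygous ΔPG cells it rose by 0.51 (adjusted p = 2.77e-05), or by 0.44 and under the limit without homozygous ES replicate 3, and by 0.29 with the GC trend removed. In heterozygous ΔPG cells it differed by 0.04 (adjusted p = 0.304), or by 0.33 with the GC trend removed. In ΔG cells the difference was 0.34 in heterozygous (adjusted p = 0.0377) and 0.48 in homozygous cells (adjusted p = 4.61e-06), both under the limit. Without homozygous ES replicate 3 or homozygous RA replicate 2 the latter was 0.51 or 0.52 and passed it, as it did under quantile normalization at 0.57. With the GC trend removed the ΔG differences of Rnf187 were 0.11 in heterozygous (adjusted p = 0.47) and 0.21 in homozygous cells (adjusted p = 0.00243).

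Gm12260 went the other way in ΔPG cells. It read 6.91, 7.05 and 6.95 in heterozygous ES and 5.53, 5.50 and 5.34 in heterozygous RA samples, and 5.37, 5.59 and 5.41 in homozygous RA samples. The RA samples were below the ES samples in both genotypes. The difference was −1.52 in heterozygous (adjusted p = 1.57e-06) and −0.60 in homozygous cells (adjusted p = 0.00103), and −1.18 and −0.91 with the GC trend removed. In homozygous ΔG cells its difference was −0.47 (adjusted p = 0.0622) and under the limit. That difference was past the limit at −0.84 with the GC trend removed, at −0.51 without ES replicate 2, and at −0.57 or −0.69 without RA replicate 1 or 3. Without RA replicate 2, the lowest sample, it was −0.14 (adjusted p = 0.372).

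Trim11 fell by 0.73 (adjusted p = 4.06e-05) and Guk1 by 0.61 (adjusted p = 6.44e-05) with RA in heterozygous ΔPG cells. The differences were −0.50, still called, and −0.40, not called, with the GC trend removed. In homozygous ΔPG cells they were −0.16 and 0.02. Zfp39 and 2810021J22Rik passed in no comparison of RA with ES cells, with differences from −0.36 to −0.25 for Zfp39 and from −0.00 to 0.30 for 2810021J22Rik. Under quantile normalization Zfp39 was called lower in all 4 comparisons, at −0.72 and −0.70 in ΔG and −0.51 and −0.54 in ΔPG cells.

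In all, 0 of 9 members were called with RA in heterozygous ΔG cells by limma, beside 29.5% of all genes, and 3 (Rnf187, Trim11 and Zfp39) had an unadjusted p under 0.05. Gm12260, Hist3h2bb-ps and Hist3h2a followed the floor of the table in these samples, and Hist3h2ba lay near it. Their change was therefore not measured and nothing is read from that count. The count was 2 of 9 in homozygous ΔG cells, beside 29.2% of all genes. In ΔPG cells it was 6 of 9 in heterozygous cells (3 higher and 3 lower), beside 31.6%, and 5 of 9 in homozygous cells (4 higher and 1 lower), beside 27.8%. With the GC trend removed it was 4 of 8 in heterozygous cells, beside 45.4%, and 3 of 8 in homozygous cells, beside 41.9%.

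As Rnf187 is known as a coactivator of AP-1, a list of 19 genes of the Jun, Fos, Batf and Atf families and of the kinases that act on Jun was examined. Between ΔG genotypes, where Rnf187 differed most, 0 of 19 were called in ES cells by limma, beside 0.984% of all genes. In this comparison 1 had an unadjusted p under 0.05, and the median difference was −0.05 against −0.01 over all genes. In ΔG RA cells 1 was called, Atf3 (0.52, adjusted p = 0.00299), beside 2.14% of all genes, 9 of 19 had an unadjusted p under 0.05, and the median was 0.10 against 0.00. Between ΔPG genotypes, Jund (−0.77, adjusted p = 9.73e-06) and Junb (−0.70, adjusted p = 9.49e-05) were lower and Atf2 (0.72, adjusted p = 8.54e-05) was higher in homozygous ES cells, beside 13.2% of all genes called. After removal of the GC trend these were −0.22, −0.15 and −0.07. With that setting 0 of 14 tested were called by limma, beside 7.42% of all genes, with 5 at an unadjusted p under 0.05. In ΔPG RA cells 0 of 19 were called by limma, beside 0.846% of all genes, and 3 had an unadjusted p under 0.05.

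With RA, 7 and 8 of the 19 AP-1 genes were called in heterozygous and homozygous ΔG cells and 11 and 7 in ΔPG cells, beside 29.5%, 29.2%, 31.6% and 27.8% of all genes. In ΔG cells 6 were higher and 1 lower in heterozygous cells, and 7 higher and 1 lower in homozygous cells, with medians of 0.27 and 0.30 against 0.04 and 0.02 over all genes. Jun rose by 3.43 (adjusted p = 8.02e-12) in heterozygous and by 3.44 (adjusted p = 6.6e-14) in homozygous ΔG cells, and Fosl2 by 3.06 and 3.41. In ΔPG cells 9 were higher and 2 lower in heterozygous, and 6 higher and 1 lower in homozygous cells, with medians of 0.45 and 0.20 against 0.01 and 0.01. Fosl2 rose by 3.27 and 3.01 and Jun by 2.72 and 3.00 in these cells, or by 3.38, 2.97, 2.93 and 2.90 with the GC trend removed. The ΔPG interaction was called for 6 of 19 (2 higher and 4 lower), beside 13.9% of all genes, and for 1 of 14 with the GC trend removed, beside 9.38%.

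Of 35 other H2A and H2B genes, 34 varied and could be tested. Between ΔG genotypes 0 of 34 were called by limma in ES and in RA cells, beside 0.984% and 2.14% of all genes. Of the 34, 13 and 12 had an unadjusted p under 0.05, and the median differences were 0.09 and −0.11. In ΔPG ES cells 3 were higher and 5 lower in homozygous cells, beside 13.2% of all genes called, among them H2afj (−1.02, adjusted p = 0.000363) and Hist1h2ag (1.02, adjusted p = 1.05e-05). After removal of the GC trend 13 of 31 were higher and 2 lower, beside 7.42% of all genes called, and the median turned from −0.09 to 0.26. In ΔPG RA cells 0 of 34 were called by limma, beside 0.846% of all genes, 20 had an unadjusted p under 0.05, and the median was 0.15. The ΔPG interaction was called for 8 higher and 3 lower genes, beside 13.9% of all genes, and for 2 higher and 9 lower with the GC trend removed, beside 9.38%, so its direction depended on that step.

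The other H2A and H2B genes were also compared between RA and ES cells, where 27.8% to 31.6% of all genes were called. In ΔPG cells 0 were higher and 14 lower in heterozygous cells and 2 higher and 12 lower in homozygous cells, with medians of −0.42 and −0.39 against 0.01 over all genes in both. Hist1h2bb fell by 1.49 (adjusted p = 5.62e-09) and 0.85 (adjusted p = 1.23e-08), and the H2A variant gene H2afz fell by 0.89 (adjusted p = 6.31e-10) in homozygous ΔPG cells. In ΔG cells 2 were higher and 6 lower in homozygous cells (median −0.32), with H2afz among the lower ones (−1.04, adjusted p = 1.2e-14). The H2B gene Hist1h2bh rose by 1.20 (adjusted p = 1.33e-08) in heterozygous and by 0.90 (adjusted p = 2.22e-09) in homozygous ΔG cells. In heterozygous ΔG cells 3 were higher and 4 lower, with a median of −0.10. Under quantile normalization 2 were higher and 1 lower there, with a median of 0.00. After removal of the GC trend the genes higher and lower, of 31, were 3 and 12 in heterozygous ΔPG, 0 and 19 in homozygous ΔPG, 1 and 10 in heterozygous ΔG, and 1 and 18 in homozygous ΔG cells. With that setting 45.4% and 41.9% of all genes were called in heterozygous and homozygous ΔPG cells. Of 11997 genes in ΔG cells, 2899 were higher and 2541 lower in heterozygous, and 2933 higher and 2613 lower in homozygous cells. Whether the Hist3 genes differ from the other H2A and H2B genes was not tested.

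Genes for histone RNA synthesis and processing were examined as a list of 18, of which 17 varied. Between ΔG genotypes 0 were called by limma in ES and in RA cells, beside 0.984% and 2.14% of all genes. An unadjusted p under 0.05 was reached by 2 and 10, with medians of 0.03 and 0.12. In ΔPG ES cells Mtpap was higher (0.66, adjusted p = 0.00141), and the cleavage factor scaffold Sympk (−0.67, adjusted p = 9.37e-05) and Upf1 (−0.58, adjusted p = 0.000276) were lower, beside 13.2% of all genes called. With the GC trend removed 0 were called by limma, beside 7.42% of all genes, and 7 had an unadjusted p under 0.05. The ΔPG interaction was called for 3 higher and 2 lower genes, beside 13.9% of all genes. With the GC trend removed it was called for 0 by limma, beside 9.38% (6 at an unadjusted p under 0.05). In ΔPG RA cells 0 were called by limma, beside 0.846% of all genes, and 1 had an unadjusted p under 0.05. With RA, 1 was higher and 3 lower in heterozygous ΔG, 1 higher and 2 lower in homozygous ΔG, 1 higher and 2 lower in heterozygous ΔPG, and 1 lower in homozygous ΔPG cells, with medians from −0.16 to −0.11, beside 27.8% to 31.6% of all genes called. Under quantile normalization the genes higher and lower were 0 and 1, 1 and 1, 1 and 2, and 1 and 1 in the same order. Once the GC trend was removed, 3 were lower in heterozygous and 1 in homozygous ΔPG cells, beside 45.4% and 41.9% of all genes called. Coil, the gene of the Cajal body protein coilin, fell by 0.62 in homozygous ΔG, 0.76 in heterozygous ΔPG and 0.60 in homozygous ΔPG cells (0.69 and 0.62 in ΔPG cells with the GC trend removed).

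Guk1 acts in guanine nucleotide synthesis, and of 22 other genes of purine and guanine nucleotide metabolism 21 varied. Between ΔG genotypes 0 were called by limma in ES and in RA cells, beside 0.984% and 2.14% of all genes. An unadjusted p under 0.05 was reached by 9 and 4. In ΔPG ES cells 1 was higher (Nme1, 0.58, adjusted p = 0.00115) and 2 were lower (Impdh1, −0.63, adjusted p = 0.000636, and Pfas, −0.53, adjusted p = 3.03e-06), a share near the 13.2% of all genes. In ΔPG RA cells 0 were called by limma, beside 0.846% of all genes, and 9 had an unadjusted p under 0.05. The ΔPG interaction was called for 3 genes, all higher, beside 13.9% of all genes. Of 19 genes tested with the GC trend removed, 1 was higher and 0 lower in ΔPG ES cells (Nme1, 0.62), beside 7.42% of all genes. With that setting 1 had a called interaction, beside 9.38% of all genes. With RA, 3 were higher and 6 lower in heterozygous ΔG, 2 higher and 7 lower in homozygous ΔG, 0 higher and 10 lower in heterozygous ΔPG, and 1 higher and 6 lower in homozygous ΔPG cells, beside 29.5%, 29.2%, 31.6% and 27.8% of all genes called. The medians were −0.09, −0.13, −0.26 and −0.14, against 0.04, 0.02, 0.01 and 0.01 over all genes. Under quantile normalization the genes higher and lower were 2 and 3, 2 and 5, 1 and 8, and 1 and 3 in the same order. With the GC trend removed, 2 of 19 were higher and 9 lower in heterozygous ΔPG cells, beside 45.4% of all genes called. In homozygous ΔPG cells 1 was higher and 6 were lower with that setting, beside 41.9% of all genes. Impdh2, an IMP dehydrogenase gene, fell with RA by 0.84 and 0.92 in heterozygous and homozygous ΔG cells and by 1.23 and 0.85 in ΔPG cells. Impdh1, also an IMP dehydrogenase gene, rose with RA by 1.03 in homozygous ΔG and by 0.94 in homozygous ΔPG cells.

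Genes around the cluster differed less between ΔG genotypes, but many of them had low values. Within 500 kb of Rnf187 there were 51 other genes, of which 31 varied in the ΔG and 27 in the ΔPG table. In both tables a mean rlog value of at least 3 was reached only by Gm12258, A230051G13Rik, Mrpl55, 2310033P09Rik, Arf1, Wnt9a and Snap47. Differences of the rest are understated, so nothing is read from their small size. In ΔG ES cells none of the 31 passed a difference of 0.5, with a range from −0.43 (Fam183b) to 0.34 (Trim17). In ΔG RA cells only Trim17 did, at 0.82. Trim17, which overlaps Hist3h2a and encloses Gm12260, read 0.84, 0.87 and 0.88 in heterozygous and 1.15, 1.43 and 1.02 in homozygous ΔG ES samples, and 0.82, 0.83 and 0.89 against 1.70, 1.57 and 1.73 after RA. Its genotypes did not overlap, its heterozygous samples ranked exactly as the floor of the table did, and reads of Hist3h2a and Trim17 cannot be told apart in the shared exons. Next to Rnf187 on the other side, Butr1 (5.13 kb away) and Gm12257 had means of −2.21 in the ΔG table, at its floor.

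Between ΔPG genotypes 0 of the 27 surrounding genes were called by limma in ES cells, in RA cells or in the interaction, and 6, 2 and 5 had an unadjusted p under 0.05. Over all genes 13.2%, 0.846% and 13.9% were called in these comparisons. With RA, Wnt9a, a Wnt ligand gene, rose by 1.48 and 1.64 in heterozygous and homozygous ΔG cells and by 1.98 and 2.10 in ΔPG cells (2.21 and 1.98 with the GC trend removed). Snap47 was also called higher in these 4 comparisons. Olfr329-ps was higher in heterozygous ΔG and homozygous ΔPG cells, Trim17 was higher in homozygous ΔPG cells (0.78, adjusted p = 0.00273), and Gm12258 was lower in heterozygous ΔG cells (−0.56). In heterozygous ΔPG cells A230051G13Rik (−0.52) and the Wnt ligand gene Wnt3a (−0.62) were lower. A230051G13Rik was at −0.32 and not called with the GC trend removed, and in homozygous ΔPG cells it went from −0.43, not called, to −0.52, called lower. For Wnt3a, Trim17 and Olfr329-ps no test was possible with that setting.

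Apart from the members, the genes most like Rnf187 over the 12 ΔG samples were Psmd3 (Pearson r = 0.974), 1500032L24Rik (0.971), Myo1c (0.956), Wnk3-ps (0.953) and Tgm1 (0.94), of 11990 genes compared. Since Rnf187 splits the samples by genotype, this likeness follows the gap between 6 heterozygous and 6 homozygous samples and is a description. Their differences were much smaller than that of Rnf187, with Psmd3 at 8.60 and 8.89 and Wnk3-ps at 6.08 and 7.31 in heterozygous and homozygous ES samples. Among the members, r with Rnf187 was 0.981 for Hist3h2ba, 0.95 for Gm12260, 0.945 for Hist3h2a, 0.931 for Hist3h2bb-ps, 0.858 for Guk1, 0.295 for Trim11, 0.291 for 2810021J22Rik and 0.197 for Zfp39. Over the 12 ΔPG samples the most similar of 11896 genes other than members were Map3k11 (0.987), Col5a3 (0.985), Zfp523 (0.977), 2610301G19Rik (0.975) and Mogs (0.974). There r was 0.749 for Hist3h2ba, 0.603 for Hist3h2bb-ps, 0.417 for Hist3h2a and 0.399 for Guk1. It was 0.289 for Trim11, 0.0298 for 2810021J22Rik, −0.0532 for Gm12260 and −0.504 for Zfp39. In that table Rnf187 had a range of 0.74, with the homozygous ES samples lowest.

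Promoters are shown for Rnf187, Hist3h2ba and Hist3h2a, since these genes of the core were low together in heterozygous ΔG samples. RefSeq (GRCm38.p6) gave 7 promoters for 6 of 9 members, and no entry was matched by symbol for Gm12260, Hist3h2bb-ps and Trim11. The 250 bases before each start were searched on both strands for 4 motifs. Only exact matches were counted, so other forms of a box were missed. The TATA box form TATAAA was in 1 of 7 members' promoters and in 12.4% of 32851 promoters in all. The stretch tatataag near the end of the Hist3h2a promoter is not an exact match and was not counted. The CCAAT box was in 4 of 7 and in 33.8% of all, and the GC box GGGCGG was in 4 of 7 and in 32.7% of all. The AP-1 motif TGANTCA was in 0 of 7 and in 6.75% of all. The Rnf187 promoter (chr11:58938907-58939156, minus strand) held GGGCGG on its opposite strand, 23 bases before the start. The Hist3h2ba promoter (chr11:58948661-58948910, plus strand, listed as H2bu2) held CCAAT 4 times and TATAAA 39 bases before the start and, on the opposite strand, 87 bases before it. The Hist3h2a promoter (chr11:58954435-58954684, plus strand, listed as H2aw) held CCAAT 68 bases before the start and, on the opposite strand, 86 bases before it. The sequences run 5′ to 3′ on the strand of the gene, with these motifs in capitals on either strand.
Rnf187: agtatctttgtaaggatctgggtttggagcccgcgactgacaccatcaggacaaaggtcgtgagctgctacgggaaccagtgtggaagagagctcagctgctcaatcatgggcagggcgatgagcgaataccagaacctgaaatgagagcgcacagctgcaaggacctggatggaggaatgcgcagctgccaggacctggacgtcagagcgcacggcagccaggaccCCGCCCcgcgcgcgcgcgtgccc
Hist3h2ba: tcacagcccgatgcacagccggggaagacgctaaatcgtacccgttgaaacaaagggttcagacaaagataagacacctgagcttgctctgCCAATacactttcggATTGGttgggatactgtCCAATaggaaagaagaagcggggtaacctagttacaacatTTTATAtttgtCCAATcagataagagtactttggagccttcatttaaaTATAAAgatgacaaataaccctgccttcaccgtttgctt
Hist3h2a: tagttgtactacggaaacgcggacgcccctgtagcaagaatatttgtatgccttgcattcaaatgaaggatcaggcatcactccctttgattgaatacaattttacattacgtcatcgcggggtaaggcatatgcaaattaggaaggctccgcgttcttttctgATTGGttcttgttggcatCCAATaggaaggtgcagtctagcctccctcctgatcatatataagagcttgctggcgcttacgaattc

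Contacts of the 5430416N02Rik promoter were mapped by 4C-seq in ESCs, a method that lists regions ligated to a bait. The methods name NCBI37/mm9, but few region starts lay at HindIII sites of that build, while 95.6% and 95.1% did when read as GRCm38 positions and moved to it by the offset of nearby genes. On GRCm38 the cluster from Rnf187 to Hist3h2a lies at 58932288 to 58955192 of chromosome 11. In replicate 2 it lay inside a called region at 58708721 to 60607903, and in replicate 1 it lay in none, with the nearest region at 59714743 to 63560767. Read on NCBIM37, the cluster lay in the same region of replicate 2 and in none of replicate 1. In each replicate 48.5% of 49997 RefSeq genes overlapped a region, and the share that did so in exactly 1 of 2 replicates was not computed. The paper took the overlap of both replicates as its high-confidence regions. Nothing is therefore read from the region of replicate 2.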

How the data were processed

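The members, the gene lists and the comparisons were chosen with earlier results of these data known. RNA-seq reads had been mapped by the authors with TopHat2 2.1.0 (NCBI37/mm9), who removed duplicates with Picard, counted reads per gene with HTSeq 0.6.0 and transformed the counts with DESeq2 1.14.1. The deposited values are on a log2 scale (rlog), with separately normalised tables of ΔG and ΔPG samples. The methods do not state if the transformation was blind to the groups, and without counts the depth is unknown. The deposited 4C-seq files are BED positions of the regions that the authors called in each replicate, without a score. Of 339 and 341 region starts, 12 and 16 lay within 6 bases of a HindIII site of NCBIM37, and 4 and 5 regions ended past a chromosome end, so genes were placed on GRCm38. When starts were read as GRCm38 positions and moved to NCBIM37 by the commonest offset of gene ends within 1.5 Mb, 306 of 320 and 309 of 325 lay at such a site.

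Linear models were fitted in R 4.3.3 with limma 3.58.1, using eBayes and its variance trend, over all varying genes of the 6 samples compared or, for the interaction, of the 12 samples of a table. Calls needed a log2 difference over 0.5 in either direction and p under 0.1 after Benjamini-Hochberg adjustment. The members got no test between ΔG genotypes or in the ΔG interaction. The alternatives were all 12 samples in 1 fit, a mean rlog value of at least 3, quantile normalization, an adjusted p under 0.05 with a fold change over 1.5, no variance trend, the replicate number as a block, the removal of a lowess trend with exonic GC content, and leaving out each replicate.

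The genes named are the members, 5430416N02Rik, the genes within 500 kb of Rnf187 that were called and the 3 nearest on each side, up to 4 called genes of a list with the largest differences, and in each table the 5 genes other than members with the highest Pearson correlation with Rnf187. Trim17, Fam183b and other single genes at the end of a range were named after their values were seen. The lists were AP-1 genes, H2A and H2B genes, histone RNA genes, guanine nucleotide genes, and markers of stem cells, retinoic acid response, endoderm and fibroblasts. Levels per kb are the rlog mean less the log2 of the exonic length in kb. Copies were searched with blast 2.17.0. Python 3.11.15 with numpy 2.4.6, pandas 2.3.3, scipy 1.17.1 and matplotlib 3.10.9 was used for the rest. The RIP-seq and Capture-C data were not analysed here.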

Additional observations from a re-analysis of the deposited data

Results flagged for a closer look

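The difference between homozygous and heterozygous ΔPG samples was not the same in RA as in ES cells for 4 members, by the interaction test. Homozygous less heterozygous samples gave negative values in ES cells (−0.43 for Hist3h2ba, −0.91 for Gm12260, −0.78 for Trim11 and −0.70 for Guk1) and values nearer to 0 in RA cells (0.11, 0.00, −0.21 and −0.08). The RA value less the ES value was 0.54 for Hist3h2ba, 0.91 for Gm12260, 0.57 for Trim11 and 0.63 for Guk1. None of these passed with the GC trend removed, and the part of base composition in them was not tested further.

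The difference between genotypes had opposite signs in ΔG and ΔPG cells for some members, without overlap of genotypes in either line. In ES cells homozygous less heterozygous samples gave 3.36 in ΔG and −0.53 in ΔPG cells for Rnf187, 3.28 and −0.43 for Hist3h2ba, 2.67 and −0.91 for Gm12260, and 0.26 and −0.70 for Guk1. In RA cells Rnf187 gave 3.50 in ΔG and −0.06 in ΔPG cells. In ΔPG cells the values of Hist3h2ba and, with RA, of Rnf187 (adjusted p = 0.469) did not pass. With the GC trend removed the ΔPG ES values were −0.03 for Rnf187, −0.05 for Hist3h2ba, −0.28 for Gm12260 and −0.39 for Guk1, none of them called. These contrasts between the lines were not tested, because the tables were normalised separately.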

How the results depend on the processing

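No called member, and none of the 5 members past 0.5 between ΔG genotypes, turned its direction under an alternative tried. When calls needed a fold change over 1.5 at an adjusted p under 0.05, genes called fell from 217 to 117 in ΔG ES and from 471 to 275 in ΔG RA cells, and members in the ΔPG interaction from 4 to 2, which follows from the stricter limits. With the replicate number as a block, 44 genes were called in ΔG ES and 112 in ΔPG RA cells, against 217 and 186. Replicates of equal number did not pair, since in 0 of 8 comparisons was every pair of samples correlated above 0.1 (range −0.0255 to 0.0855).

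With the GC trend removed, the ΔPG ES count was 883 in place of 2893 and the ΔPG interaction 1117 in place of 3056, while members called went from 4 to 0 in both, and from 5 to 3 for RA in homozygous ΔPG cells. This setting also tests fewer genes. With quantile normalization, members called with RA were 1 (Zfp39) in place of 0 in heterozygous and 4 in place of 2 in homozygous ΔG cells, and among genes whose mean rlog value reached 3 the latter was 1, as Hist3h2bb-ps was not tested. In heterozygous ΔPG cells Hist3h2bb-ps and Hist3h2a lost their call under quantile normalization and Zfp39 gained one, and in homozygous ΔPG cells Hist3h2a lost its call and Zfp39 gained one. The cause was not tested for the block, GC and quantile settings. Under quantile normalization genes called higher and lower were 69 and 76 in ΔG ES cells, 3042 and 3304 with RA in heterozygous ΔG, 2941 and 3305 in homozygous ΔG, and 2864 and 2960 in homozygous ΔPG cells, in place of 78 and 139, 3911 and 2588, 3759 and 2675, and 3634 and 2482. No scaling moved the median of all genes by over 0.1. No count moved by over 1.5 times when 1 replicate was left out. Of single tested members under all settings, 812 values kept their call, 13 gained and 21 lost it. Of those without a test, 225 moved by less than the spread of replicates and 1 by more. Depth cannot be judged from rlog values.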

Other observations

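Markers of other cell types moved with RA and in part with genotype, and their part in the members' differences was not tested. All 8 endoderm markers rose with RA in both genotypes of both lines, beside 27.8% to 31.6% of all genes called. Col4a1 was the most abundant of these markers after RA, and none was listed at 0 in every sample. After RA their mean was 7.53 ± 0.02 in heterozygous and 7.17 ± 0.05 in homozygous ΔG samples (SD, n = 3), and 7.29 ± 0.02 and 6.74 ± 0.05 in ΔPG samples. Between genotypes after RA, 3 of 8 were lower in homozygous ΔG cells, beside 2.14% of all genes called. These were Lama1 at −1.03 (adjusted p = 1.68e-15), Dab2 at −0.70 (adjusted p = 2.44e-06) and Col4a1 at −0.62 (adjusted p = 5.62e-11). In homozygous ΔPG cells 5 of 8 were lower, beside 0.846% of all genes called, and 4 of 8 with the GC trend removed, beside 1.59%. Among the 5 were Lama1 (−0.95, adjusted p = 1.29e-07), Col4a1 (−0.92, adjusted p = 8.72e-08) and Gata4 (−0.80, adjusted p = 0.00682). In ES cells the means were 4.22 and 4.11 in ΔG and 4.35 and 4.23 in ΔPG samples, and Col4a1 was lower in homozygous ΔPG cells (−0.73, adjusted p = 0.000644), or −0.36 and not called with the GC trend removed.

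Of 8 fibroblast markers, 7 rose with RA in heterozygous and 5 in homozygous ΔG cells, beside 29.5% and 29.2% of all genes called. In ΔPG cells 6 and 7 rose and 1 was lower in each genotype, beside 31.6% and 27.8%. Under quantile normalization 5 of these markers were higher and 1 lower in heterozygous ΔG cells. Their mean was 2.71 and 2.65 in heterozygous and homozygous ΔG ES samples and 5.20 and 4.85 after RA, and 2.77 and 2.87 in ΔPG ES samples and 5.03 and 4.97 after RA. Col1a2 was lower in homozygous ΔG RA cells (−1.41, adjusted p = 2.76e-12), as was Pdgfra (−0.66, adjusted p = 3.92e-07). In homozygous ΔPG cells Pdgfra was higher in the ES state (0.56, adjusted p = 0.017), or 0.49 and not called with the GC trend removed, and Col3a1 lower after RA (−0.67, adjusted p = 9.86e-05).

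Among stem cell markers, Pou5f1 was lower in homozygous ΔPG ES cells (−0.52, adjusted p = 1.77e-06), or −0.23 with the GC trend removed, and Klf4 was lower in homozygous ΔPG RA cells (−0.61, adjusted p = 0.0126). Of the retinoic acid responsive genes, Cdx1 was higher in homozygous ΔG RA cells (0.91, adjusted p = 0.000195) and Meis2 in homozygous ΔG ES cells (0.57, adjusted p = 0.00907). Cdx1 was lower in homozygous ΔPG ES cells (−0.63, adjusted p = 3.23e-05), or −0.09 with the GC trend removed. Hoxb1 was higher in homozygous ΔPG RA cells (0.57, adjusted p = 0.00628).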
